A study of Mus musculus with 18 samples.

Results

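One-sided hubs are short stretches of chromosome from which many loops leave in a single direction. They were selected on the loop list itself. All 10000 bp anchors of the deposited loops that overlapped by at least 1 bp were merged into anchor regions on the 19 autosomes, and a region was kept where it held 5 or more loops of which at least 90% ran the same way. This gave 582 hubs among 19863 anchor regions, a share of 2.93% (95% Wilson interval 2.70 to 3.17%), and among 1566 regions with 5 or more loops, a share of 37.2%. The other 984 regions with 5 or more loops sent loops both ways and are called two-sided hubs. Since direction and number of loops chose the members, their loop counts, spans and partners are descriptions. The domain list was not used by the rule, but it comes from the same series of libraries as the loop list.

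The series holds 18 Micro-C libraries of the G1E-ER4 line, mouse erythroblasts grown in culture, all from its LDB1-AID subline, in which LDB1 carries an auxin-inducible degron. Of these, 9 were untreated and 9 received auxin for 4 h. Both lists were made once for the series, with 20926 loops and 13483 domains, and neither has values per sample or treatment. What follows therefore describes no effect of auxin and has no replicates behind it. Shares carry 95% Wilson intervals and medians carry 95% order-statistic intervals. These cover the counting of regions only, and the read depth behind the loops is unknown here. Coordinates are those of the files, counted from 1, in mm9 per the submitters' processing notes. No genome or annotation of that build was used here, so no gene or sequence is named.

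Micro-C cuts chromatin between nucleosomes and joins DNA ends that lie close together, so a loop is a pair of positions that meet more often than their surroundings. In the textbook account of loop formation, the cohesin ring reels in chromatin until it meets CTCF bound in a particular orientation. A strong barrier of this kind can hold one end in place while the other keeps moving, which draws a stripe of contacts from the barrier into one flank. Stripes themselves were not measured here, since the lists hold only the ends of called loops. A promoter in contact with several enhancers of one flank would also send its loops one way. LDB1 bridges transcription factors at distant erythroid enhancers and promoters. CTCF, cohesin and LDB1 binding were not measured in these lists.

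The hubs were divided almost evenly by direction. Loops ran to higher coordinates from 292 hubs, a share of 50.2% (46.1 to 54.2%), and to lower coordinates from 290. In 575 hubs every loop ran one way, and in the other 7 a single loop ran against the rest. The 90% limit allows no opposing loop in a hub of under 10 loops, so only the 10 hubs with 10 or more loops could hold one. Most hubs lay near the lower limit of loops, with 341 hubs of 5 loops, 140 of 6, 56 of 7, 23 of 8, 12 of 9 and 10 of 10 or more. Just outside the rule were 771 regions with 4 loops that all ran one way, and 381 regions with 5 or more loops of which 80% to under 90% ran one way. Among the 760 regions with exactly 5 loops, 341 were entirely one-sided, 206 were divided 4 to 1 and 213 were divided 3 to 2. One-sided hubs had a median width of 16 kb (15 to 16.5 kb) and two-sided hubs one of 20 kb. Loops with an end in a one-sided hub made up 15.8% of the 20535 autosomal loops, or 3235 loops.

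The partners of a hub were strung out along its flank. The nearest partner lay at a median of 80 kb from the hub midpoint (74.5 to 85.2 kb) and the farthest, called the reach, at 467.5 kb (447 to 491 kb). The reach was a median of 5.30 times the nearest distance. It varied from 82.5 to 1982 kb between hubs, with quartiles of 330 and 651 kb, was over 1 Mb in 51 hubs (8.76%) and under 200 kb in 24. Hubs running to higher coordinates reached a median of 482.5 kb (454.5 to 508 kb) and those running to lower coordinates 456 kb (420 to 487.5 kb), intervals that overlap. Neighbouring partner regions of a hub were a median of 73.8 kb apart (70.8 to 77.5 kb). Of 2368 such gaps, 32.5% were under 50 kb and 11.9% were over 200 kb. By distance, 19.8% of hub loops ended within 100 kb of the hub, 26.8% from 100 to 200 kb, 30.6% from 200 to 400 kb, 18.4% from 400 to 800 kb and 4.33% farther out. The loops thus ended over a wide range of distances. In two-sided hubs the longer flank reached a median of 457 kb (433 to 475 kb), close to the reach of one-sided hubs, and the shorter flank 185 kb (175 to 196.5 kb).

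**Figure D1:**
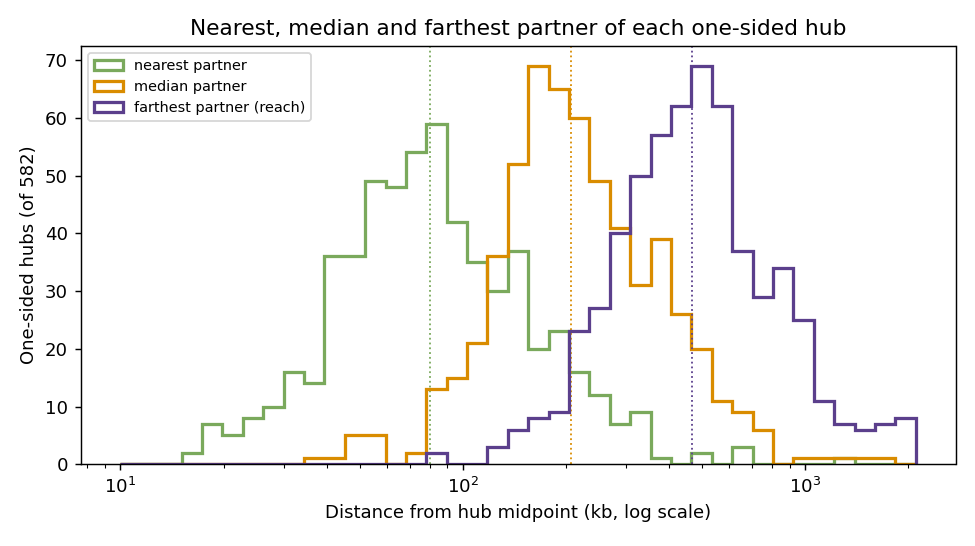
Histograms of the nearest, median and farthest partner distance of the 582 one-sided hubs (x axis, kb, log scale; y axis, number of hubs), with dotted lines at the medians. The medians are 80 kb for the nearest partner, 206 kb for the median partner and 467.5 kb for the farthest.

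Loops were counted as listed, and several loops of a hub can end in the same partner region. A hub had a median of 5 partner regions, from 2 to 11. There were 415 hubs with 5 or more distinct partner regions (71.3%, 67.5 to 74.8%) and 39 with 3 or fewer. Anchors lie on coordinate grids of 2, 5 or 10 kb steps. Hub loops were on the 5 kb grid in 51.5% of cases, the 10 kb grid in 29.7% and the 2 kb grid in 18.8%, compared with 46.3%, 32.7% and 21.0% of other autosomal loops. Loops from all 3 grids met in 265 hubs, loops from 2 grids in 289 and loops from a single grid in 28.

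The hub with the most loops lay on chromosome 12 at 116407501 to 116472500. It had 13 loops, of which 12 ran to 8 partner regions at higher coordinates, 177.5 to 597.5 kb away. Its last 4 loops all ended in a two-sided hub of 15 loops at 117006001 to 117047500. At 65 kb this was also the widest hub, and the nearest boundary behind it was 167.5 kb away.

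On chromosome 8, positions 27264001 to 27290000 sent 11 loops to 11 different regions at lower coordinates, from 48 to 892 kb away. These partners had 1 to 4 loops each except the farthest, which was itself a one-sided hub of 7 loops running back toward it. A domain boundary lay 13 kb behind this hub and the nearest one ahead 182 kb away, and 1 domain held all its loops. On chromosome 15, positions 61807501 to 61824000 sent 11 loops to 10 regions at higher coordinates. Of these loops, 7 ended from 117 to 439 kb away and another at 822 kb. The last 3 ended far beyond the rest, at 1617, 1667 and 1757 kb. The boundary behind this hub was 25.8 kb away, and 1 domain again held all its loops. On chromosome 7, positions 123170001 to 123190000 sent 10 loops to 10 regions at lower coordinates, spread from 95 to 1115 kb, each of which had at most 2 loops in all. These hubs on chromosomes 8, 15 and 7 were entirely one-sided.

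The remaining hubs of 10 or more loops each had a single loop against the main direction. On chromosome 16, positions 8850001 to 8887500 sent 10 loops to 6 regions at lower coordinates, up to 464 kb away, where the last 2 loops ended in a one-sided hub of 7 loops running back. Positions 92690001 to 92710000 on the same chromosome sent 9 loops to 9 regions at higher coordinates, 123 to 752.5 kb away. On chromosome 11, positions 115662501 to 115682500 sent 9 loops down to 450 kb. On chromosome 13, positions 21240001 to 21270000 sent 9 loops to higher coordinates up to 857.5 kb, and positions 63427501 to 63442500 sent 9 to lower coordinates up to 870 kb. On chromosome 12, positions 78090001 to 78117500 sent 9 loops up to 781 kb, and 3 of them ended in 1 facing hub.

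**Figure D2:**
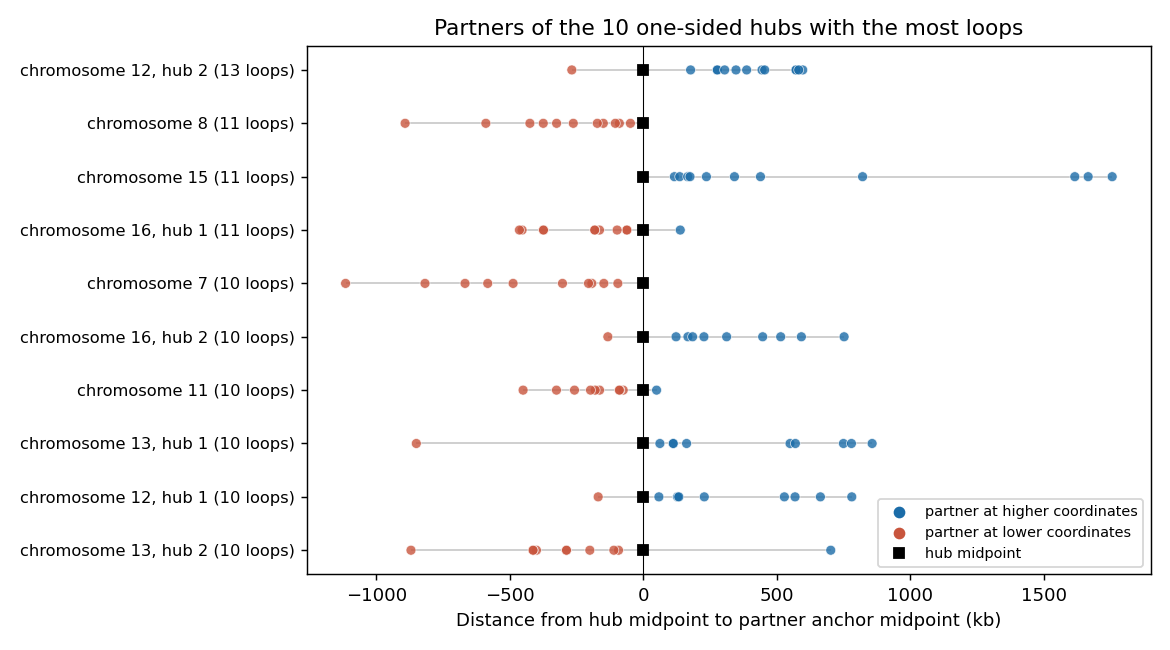
Each row is 1 of the 10 one-sided hubs with the most loops, with its midpoint at 0 and each loop's partner as a point at its distance (x axis, kb; blue, higher coordinates; red, lower coordinates). The chromosome 15 hub has 3 partners from 1617 kb on, after a stretch without any from 822 to 1617 kb, and the chromosome 8 and 7 hubs have partners on one side throughout.

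The 3 longest reaches in each direction came from hubs with 5 or 6 loops, and some rested on a single loop. Among hubs running to higher coordinates they were 1982 kb on chromosome 17 (8442501 to 8464000), 1912.5 kb on chromosome 4 (145032501 to 145057500) and 1851 kb on chromosome 2 (168070001 to 168082500), each with 5 loops. The 4 other loops of the chromosome 17 hub ended within 169 kb. Among hubs running to lower coordinates they were 1959 kb on chromosome 4 (147142501 to 147160000), 1856 kb on chromosome 10 (87782501 to 87800000) and 1845 kb on chromosome 15 (101890001 to 101910000), with 5, 5 and 6 loops. The chromosome 10 hub spread its 5 loops over 474, 774, 1306, 1696 and 1856 kb. In none of these 6 hubs did 1 domain hold all loops.

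The clearest feature that the rule did not use was the position of domain boundaries. A domain is a block of the contact map within which contacts are enriched, and a boundary is a start or end of a listed domain. The side of a hub that its loops run to is called ahead, and the opposite side behind. A boundary lay within 40 kb behind the midpoint of 327 of 582 hubs, a share of 56.2% (52.1 to 60.2%). Ahead, the same distance held a boundary in 54 hubs, a share of 9.28% (7.18 to 11.9%). The share behind was above the share ahead on 19 of 19 autosomes, from 33.3 to 75.8% behind (SD over autosomes 11.9 percentage points) and from 0 to 18.8% ahead (SD 5.42). Of all 582 hubs, the nearest boundary of either side was behind in 517 (88.8%, 86.0 to 91.1%). Within 100 kb there was a boundary behind 87.5% of hubs and ahead of 13.2%. No test was made, since the lists hold no replicates.

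Two-sided hubs, which have no side without loops, showed a smaller difference between their flanks. A boundary lay within 40 kb at lower coordinates in 35.9% of them (32.9 to 38.9%) and at higher coordinates in 26.9% (24.3 to 29.8%). Of the two-sided hubs, 909 had more loops one way than the other, and a boundary lay behind the majority in 39.5% and ahead of it in 22.1%. A boundary on either side was about as frequent for both kinds of hub, at 59.3% (55.2 to 63.2%) of one-sided and 54.5% (51.4 to 57.6%) of two-sided hubs, and the one-sided share was the higher on 12 of 19 autosomes. Over all 19863 anchor regions it was 41.2%. The kinds of hub differed more in the side on which the boundary lay than in whether there was one.

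Counted in steps of 10 kb, boundaries were in excess behind the hubs and few lay from 25 to 65 kb ahead. The excess fell off gradually farther behind, to 15.1 per 100 hubs at 70 kb behind hubs running to higher coordinates. Hubs running to higher coordinates had 42.1 boundaries per 100 hubs at 40 kb behind and 41.1 at 30 kb behind, but 3.42 at 0 kb. From 25 to 65 kb ahead of these 292 hubs there were 2 boundaries in all, against 243 at the same distances on the higher side of the 984 two-sided hubs. Hubs running to lower coordinates had their highest values at 20 kb behind, with 36.9 boundaries per 100 hubs, and at 10 kb behind, with 33.8. They still had 26.6 at 0 kb and 11.7 at 10 kb ahead. From 25 to 65 kb ahead of these 290 hubs there were 4 boundaries. The smallest domain in the list is 100 kb, so a domain that begins just behind a hub cannot end in the first part of the flank ahead.

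**Figure D3:**
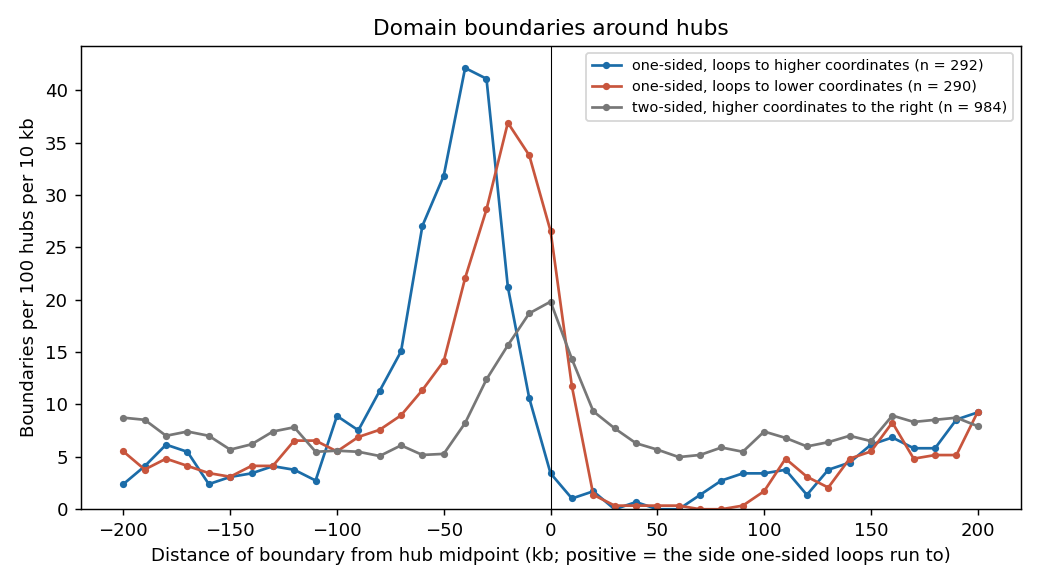
Domain boundaries per 100 hubs in steps of 10 kb (y axis) by distance from the hub midpoint (x axis, kb; for one-sided hubs, positive distances are on the side the loops run to; for two-sided hubs, at higher coordinates). Both one-sided curves peak behind the hub, at 42.1 and 36.9 boundaries per 100 hubs, and fall to near 0 from 25 to 65 kb ahead of it, while the two-sided curve peaks at 0 kb with 19.8.

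The boundary lay farther from hubs running to higher coordinates than from those running to lower coordinates. The nearest boundary behind was at a median of 41.2 kb (36.2 to 44.6 kb) for the former and 27.3 kb (23.2 to 30 kb) for the latter. Within 40 kb a boundary was behind 48.6% (43.0 to 54.3%) and ahead of 2.74% (1.40 to 5.31%) of hubs running up, and behind 63.8% (58.1 to 69.1%) and ahead of 15.9% (12.1 to 20.5%) of hubs running down. In coordinates, boundaries were thus displaced toward lower values for both kinds. The boundaries of two-sided hubs leaned the same way, with 15.7 per 100 hubs at 20 kb toward lower and 9.35 at 20 kb toward higher coordinates. Whether the positions of the loop and domain lists are offset from each other was not tested.

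The share of regions with a boundary behind was lowest with 1 loop and highest with 7 or more, and the larger part of the difference lay between 1 and 4 loops, below the limit of the rule. Among regions whose loops all ran to higher coordinates, it was 25.8% (24.6 to 27.0%) of 5154 with 1 loop, 32.2% with 2, 36.4% with 3, 46.0% with 4, 46.4% with 5, 44.9% with 6 and 58.5% (45.1 to 70.7%) of 53 with 7 or more. For loops to lower coordinates it was 29.2% (28.0 to 30.5%) of 5113 with 1 loop, 40.1% with 2, 50.8% with 3, 57.3% with 4, 57.7% with 5, 69.0% with 6 and 80.5% (66.0 to 89.8%) of 41 with 7 or more. From 4 to 6 loops the intervals overlap. A boundary ahead was found for 11.7% of regions with 1 loop to higher coordinates and 3.01% of those with 5, while for loops to lower coordinates the shares were 18.0% and 14.9%. With 7 or more loops the share ahead was 3.77% (1.04 to 12.8%) for loops to higher and 19.5% (10.2 to 34.0%) for loops to lower coordinates. Median region width went from 10 kb with 1 loop to 20 kb (up) and 17.5 kb (down) with 7 or more, and its part in these shares was not tested.

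**Figure D4:**
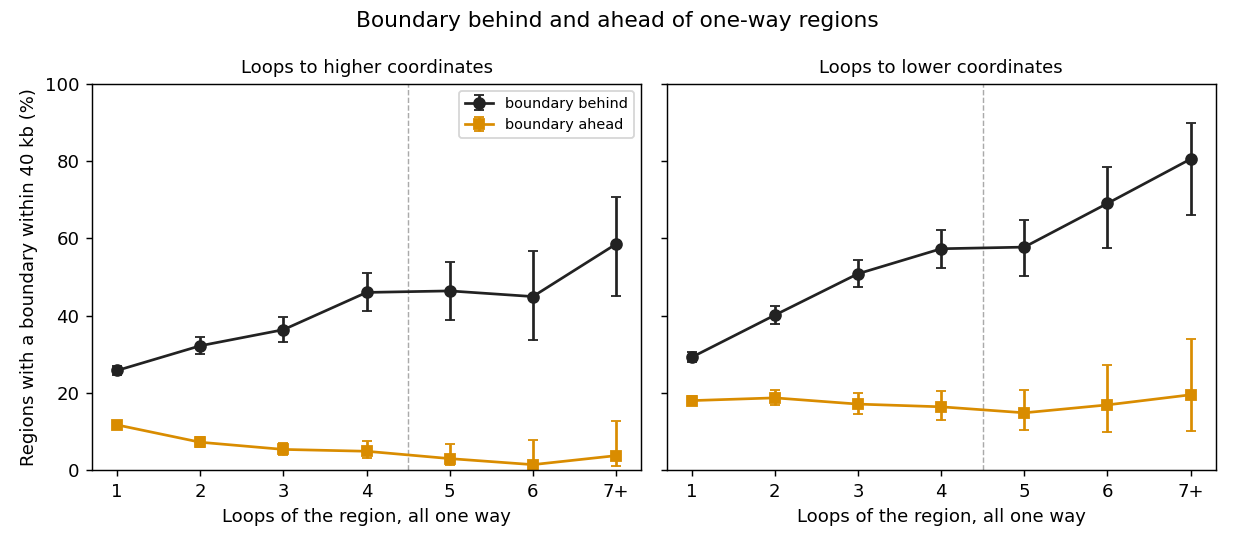
Share of regions with a boundary within 40 kb behind (black) or ahead (orange) by number of loops, for regions whose loops all run one way; bars are 95% Wilson intervals and the dashed line marks the limit of 5 loops. The share behind goes from 25.8 to 58.5% for loops to higher and from 29.2 to 80.5% for loops to lower coordinates.

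Most hubs with a boundary behind had a domain that began there on the hub's side and another that ended on the far side. Of the 327 hubs with a boundary within 40 kb behind, 312 (95.4%) had one where a domain that extends ahead begins, 308 (94.2%) one where a domain behind ends, and 293 (89.6%) both. These are counts of hubs, not of boundaries, and they were not made for other regions, so they are not shown to be particular to these hubs. Hubs with a boundary behind had a median reach of 505 kb (469.5 to 536 kb), and the 255 hubs without one a median reach of 427.5 kb (380 to 459 kb). In the latter the nearest boundary behind was at a median of 65.2 kb, with quartiles of 50 and 109 kb. In 51 hubs no boundary lay within 100 kb on either side.

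The loops of a hub often lay inside a single domain. Any listed domain could count, also one that holds smaller domains, so it need not be the one at whose edge the hub lay. All loops were held by 1 domain in 422 of 582 one-sided hubs (72.5%, 68.7 to 76.0%) and in 481 of 984 two-sided hubs (48.9%, 45.8 to 52.0%). With exactly 5 loops the shares were 73.9% (69.0 to 78.3%) and 52.3% (47.5 to 57.0%). The loops of a one-sided hub cover less chromosome, a median of 472.5 kb against 652.5 kb in all. At stretches under 300 kb the shares were 93.3% (86.9 to 96.7%) and 89.3% (80.9 to 94.3%), from 300 to 500 kb they were 86.2% (80.9 to 90.2%) and 77.7% (71.5 to 82.8%), and from 800 to 2100 kb they were 39.2% (30.3 to 48.9%) and 20.3% (16.3 to 24.9%). From 500 to 800 kb they were 62.4% (54.8 to 69.4%) and 55.6% (50.2 to 61.0%). The intervals of the kinds overlap in the 3 bands under 800 kb and are apart from 800 to 2100 kb. At like stretches the difference between the kinds of hub was thus smaller than over all hubs.

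Many hubs at a domain edge had a partner near the opposite edge. Of 312 hubs at the near edge of a domain, within 40 kb, 141 were at the near edge of more than 1 domain. At least 1 partner lay within 40 kb of the far edge of such a domain in 260 of the 312 (83.3%, 78.8 to 87.1%). Any partner and any such domain could count, and the share was not computed for other regions, so it is not shown to be particular to these hubs. The farthest partner was within 40 kb of a far edge in 83 (26.6%). Measured against the largest such domain, the farthest partner stopped more than 40 kb short of the edge in 109 hubs (34.9%) and lay more than 40 kb beyond it in 140 (44.9%).

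Most partners were regions with few loops, as are most anchor regions. Of 2950 pairs of a hub and a partner region, the partner had fewer than 5 loops in 78.3%, and no loop other than to that hub in 28.4%. It was a two-sided hub in 16.5% and a one-sided hub running back in 5.08%. In 1 pair it was a one-sided hub running the same way, which the rule nearly forbids. Of all 19863 anchor regions, 1566 had 5 or more loops, 984 of them two-sided and 582 one-sided hubs. Regions with a single loop numbered 5154 for loops up and 5113 for loops down. Partners thus had 5 or more loops more often than regions at large, but a region with more loops can also be a partner more often. Partners were seldom held in common, since 183 of 2756 partner regions (6.64%) were linked to 2 or 3 one-sided hubs.

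Facing hubs, one running up to another that runs down, were joined directly by 99 loops in 75 pairs. They involved 70 of 292 hubs running up (24.0%, 19.4 to 29.2%) and 69 of 290 running down (23.8%, 19.2 to 29.0%). The facing hubs were a median of 383 kb apart (340 to 468 kb), and 1 domain held 68 of the 75 pairs (90.7%, 82.0 to 95.4%). In 60 pairs the hubs also had at least 1 partner region in common (80%, 69.6 to 87.5%). Neither share was computed for other regions joined by a loop, so neither is shown to be particular to facing hubs. Each hub lay within 40 kb inside an edge of the same domain in 6 pairs, and within 60 kb in 22.

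There were 19 facing pairs with 2 or more loops and 5 with 3, the highest number. The first 3 of these by chromosome joined 90550001 to 90577500 with 90657501 to 90684000 on chromosome 6, 126547501 to 126568000 with 126598001 to 126612500 on chromosome 10, and 73552501 to 73568000 with 73750001 to 73766000 on chromosome 12. Their midpoints were 107, 47.5 and 197.75 kb apart. None of these 3 pairs had a partner in common. In each pair both hubs had 5 or 6 loops, so the 3 direct loops made up a large part of their count. Loops were counted as listed, and whether the 3 loops of a pair are separate contacts was not tested.

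Hubs of opposite direction also lay back to back. A hub running the other way was within 50 kb behind 24 hubs (4.12%, 2.79 to 6.06%) and within 50 kb ahead of 2 (0.344%, 0.0943 to 1.24%). The 2 are the members of 1 facing pair on chromosome 10, 47.5 kb apart. Such counts take in both members of a pair, which are not independent, so their intervals are too narrow. Within 500 kb the order was the opposite, with 86 hubs (14.8%) behind and 107 (18.4%) ahead, and these intervals overlap. Within 100 kb there were 17 back-to-back pairs, at a median distance of 40 kb. A domain boundary lay between the midpoints in 17 of 17 pairs (95% Wilson interval from 81.6%). This stretch is behind both hubs, and within 100 kb a boundary lay behind 87.5% of all one-sided hubs. The count thus partly repeats that share. In 3 pairs the regions abutted, so that an anchor bridging them would have made 1 two-sided hub. These lay on chromosomes 12, 2 and 10. On chromosome 12, 81227501 to 81250000 sent 8 loops down and 81250001 to 81272500 sent 6 loops up. On chromosome 2, 179980001 to 180000000 sent 6 loops down and 180000001 to 180016000 sent 7 up. On chromosome 10, 12707501 to 12730000 sent 5 loops down and 12730001 to 12742500 sent 7 up. Among pairs that did not abut, 80620001 to 80642500 on chromosome 10 with 9 loops down and 80656001 to 80670000 with 5 loops up were 31.8 kb apart by midpoint. The chromosome 8 region at 26370001 to 26392500, the facing partner of the 11-loop hub described above, was back to back with 26320001 to 26332500, which sent 6 loops down.

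Every autosome held one-sided hubs, from 16 on chromosome 16 to 60 on chromosome 2. Relative to its anchor regions, chromosome 10 had the highest share, with 36 hubs in 852 regions (4.23%), and chromosome 13 the lowest, with 18 in 962 (1.87%). Among regions with 5 or more loops, the one-sided share was 30.1 to 48.0%, again highest on chromosome 10. Hubs running up outnumbered those running down on 8 autosomes, the reverse held on 9, and 2 had equal numbers. The most uneven was chromosome 12, with 24 up and 11 down. Chromosome 11 had the highest share of hubs with all loops in 1 domain, 93.5% of 46, and chromosome 16 the lowest, 50% of 16. No boundary lay within 40 kb ahead of any of the 33 hubs of chromosome 6 or the 34 of chromosome 17.

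**Figure D5:**
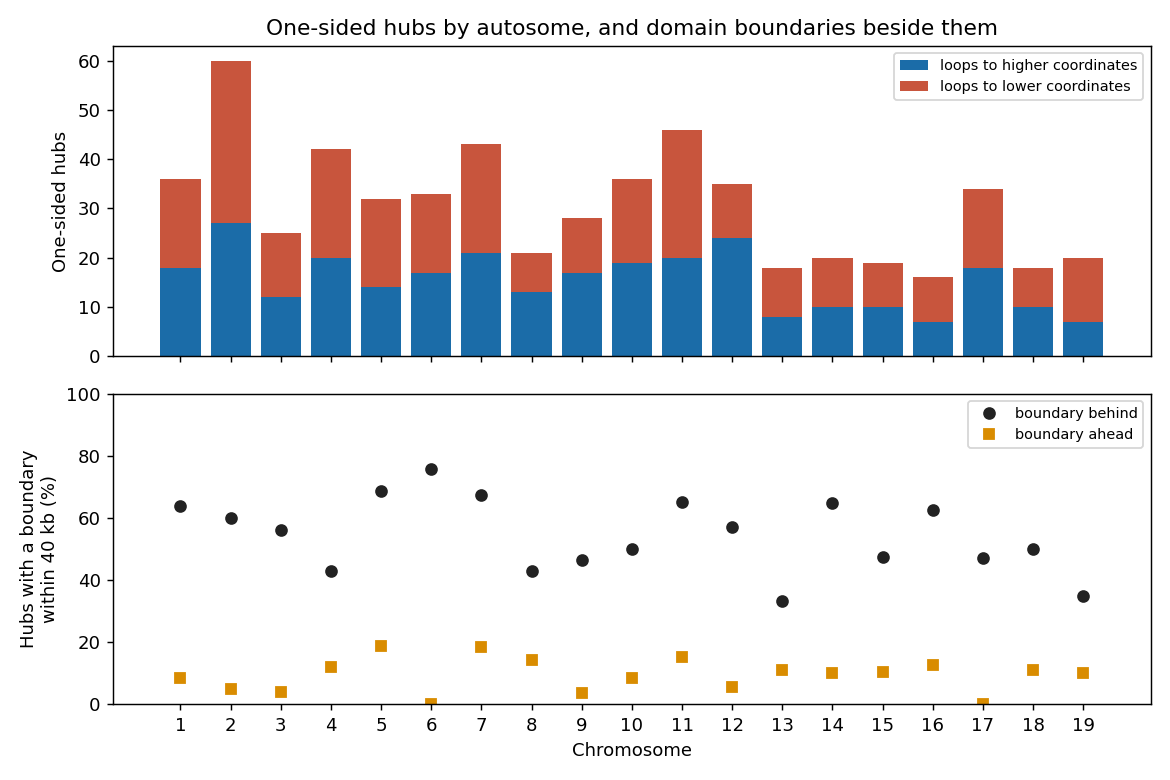
Top, number of one-sided hubs on each autosome by direction; bottom, share of these hubs with a domain boundary within 40 kb behind (black) or ahead (orange). Hub numbers range from 16 to 60, and on each of the 19 autosomes the share behind is above the share ahead.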

How the data were processed

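The authors deposited 1 loop list and 1 domain list for 18 Micro-C libraries, whose values are genome coordinates in bp with no header, score or value per sample. The build, mm9, is given per the submitters' processing notes. The aligner, callers, filters and the samples behind each list are not given in the sources used here. The number of per-sample columns that could not be mapped was 0.

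Anchors were merged, and loops counted per region, with Python 3.11.15, numpy 2.4.6 and pandas 2.3.3. The 19 loops with both anchors in 1 region were left out, as was the X chromosome. Distances to partners and boundaries were taken from the region midpoint, and a boundary at distance 0 counted as behind and ahead. The code was checked on a constructed list with planted hubs. The definition of the hubs and all comparisons were chosen with earlier results of these data known. Regions named are the 10 hubs with the most loops (ties by partner regions, then position), the 3 with the longest reach each way and the 3 facing pairs with the most loops (ties by chromosome, then position). Back-to-back pairs, and the values for single chromosomes, were named after they were seen. Alternatives covered the loop minimum, direction share, merging, duplicate loops, grid, X chromosome, boundary distance and domain nesting. Motif orientation and genes were not analysed here.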

Additional observations from a re-analysis of the deposited data

How the results depend on the processing

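The number of hubs depended on the thresholds. A minimum of 4 loops gave 1353 hubs, one of 6 gave 241, and a direction share of 80% gave 963. The 5 kb grid alone gave 79, of which 57.0% ran to higher coordinates, and found only 57 of the 582 again (9.79%). Most hubs thus depended on loops from more than 1 grid. Counting each contact once gave 458 hubs and found 456 of the 582 again, merging anchors that overlap by 5 kb gave 523 and found 454 again, and merging anchors within 5 kb gave 628 and found 470 again. The median reach was 503.8 kb with each contact counted once and 505 kb on the 5 kb grid. The share of hubs with a boundary behind was 26.8% at 20 kb and 75.1% at 60 kb. It was 51.5% for domains that hold no other and 42.1% for domains inside no other, where the share ahead was 6.01%. Measured from the region edge, chosen after seeing the data, it was 67.2%. The share behind was above the share ahead in 5 of 5 settings that gave both. The other 20 of 33 recomputed values stayed within 1.5 times the count or within the interval of the reported value. Some of these had little or no room to move. The share of hubs with all loops in 1 domain must be the same for domains inside no other. Requiring all loops one way could drop only hubs of 10 or more loops, and including the X chromosome could only add hubs. Motif orientation was not run, since no genome of the build was used here. No paired analysis was possible because no value in either list belongs to a single sample. Loops below the callers' thresholds are missing from the list, so a flank without loops is a flank without listed loops.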
